A study of Homo sapiens with 87 samples.

Results

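The BCL11A knockout of HAP1 cells, clone 2426-10, was set against wild-type HAP1 cells, clone C631, with 3 RNA-seq libraries each. The members were taken by their column labels and make up 6 of the 87 samples of the study. HAP1 is an adherent human line with a nearly haploid genome, which goes back to the cells of a patient with chronic myeloid leukaemia. The study knocked out subunits of BAF, the chromatin-remodelling complex also called SWI/SNF, in this line. The BCL11A knockout is a single clone, as is the BCL11B knockout (2432-10) used for comparison, and wild type is a single clone too, so the effect of losing the gene and other traits of these clones cannot be told apart. No further allele, agent or dose is named in the labels for these groups, which shared a medium with 10% heat-inactivated serum. Whether the 3 libraries of a group stem from separate cultures is not stated in the labels. The p-values thus measure only the spread between libraries within groups, which may be technical. That spread was estimated over 75 libraries of the study that were fitted together.

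BCL11A is a zinc-finger transcription factor that acts mainly as a repressor, and it has been found in BAF as an accessory subunit. In adult erythroid cells it silences the gamma-globin genes HBG1 and HBG2 by binding the motif TGACCA upstream of them, and it recruits the NuRD corepressor. It is also needed for B-lymphocyte development and for neurons, and its paralog BCL11B serves T cells and neurons in a similar way.

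A search of the whole table, made after the values were seen, asked which genes had all 3 BCL11A knockout libraries outside all 72 other knockout-table libraries, wild type included. This held for 18 of the 16159 genes tested (0.111%). Of these, 7 also passed the test against the mean of the other 23 knockout clones and reached 5 CPM (counts scaled to a common library total) in the higher group. ZNF518B, KCTD11 and MAP4K3 were lower, and BMP3, SNTB1, TSPAN7 and TTC28 were higher. The 250 bases before the start of each of the 3 lower genes of this search are shown, from RefSeq on GRCh38.p14. At these genes the clone was the lowest of all 25 groups, as it was at CDK14 (0.675 CPM), which is not among the 7. Capitals mark CG dinucleotides. The ZNF518B sequence is chr4:10457427-10457676 (minus strand), the KCTD11 sequence chr17:7351912-7352161 (plus strand) and the MAP4K3 sequence chr2:39437286-39437535 (minus strand).
ZNF518B: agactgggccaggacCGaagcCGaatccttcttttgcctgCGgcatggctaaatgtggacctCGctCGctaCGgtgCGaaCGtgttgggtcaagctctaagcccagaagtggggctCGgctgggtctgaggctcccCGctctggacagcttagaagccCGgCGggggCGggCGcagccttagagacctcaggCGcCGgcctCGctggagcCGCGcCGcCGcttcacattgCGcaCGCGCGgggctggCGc
KCTD11: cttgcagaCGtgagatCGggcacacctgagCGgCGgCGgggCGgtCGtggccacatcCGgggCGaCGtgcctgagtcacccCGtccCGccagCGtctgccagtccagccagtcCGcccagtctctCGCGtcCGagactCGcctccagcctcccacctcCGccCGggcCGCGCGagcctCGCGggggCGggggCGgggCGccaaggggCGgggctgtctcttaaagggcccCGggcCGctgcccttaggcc
MAP4K3: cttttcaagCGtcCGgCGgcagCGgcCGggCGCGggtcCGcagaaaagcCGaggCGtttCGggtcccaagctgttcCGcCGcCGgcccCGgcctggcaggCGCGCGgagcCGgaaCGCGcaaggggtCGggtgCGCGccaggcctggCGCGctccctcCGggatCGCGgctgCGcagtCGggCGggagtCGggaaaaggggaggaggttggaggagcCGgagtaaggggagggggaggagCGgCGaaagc
They hold 26, 31 and 36 CG dinucleotides in the order shown, where the median was 17 over the promoters of genes called higher, 14 over those of genes called lower and 21 over those of all genes tested. All 3 thus lie above the median of the called lower genes. None of the 3 windows holds TGACCA on either strand. That motif was present in the same window of 6.09% of 279 promoters of genes called higher and 7.41% of 189 promoters of genes called lower, against 6.88% of 11596 promoters of all genes tested. A match describes the letters and is not a binding site.

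ZNF518B encodes a zinc-finger protein. Its counts were 4, 2 and 7 in the BCL11A knockout libraries and 199, 286 and 234 in the wild-type libraries. The log2 fold change was -5.75 (SE 0.246, adjusted p = 2.69e-27), and the groups stood far apart. The next lowest groups were the knockouts of ARID1B (0.535 CPM) and BRD7 (2.36 CPM), against 0.213 ± 0.13 CPM (SD, n = 3) in the BCL11A knockout, and the median of the other 23 clones was 18.9 CPM. MAP4K3, a kinase that feeds amino-acid signals to mTORC1, had 185, 192 and 142 counts in the BCL11A knockout libraries and 1023, 1382 and 1571 in wild type. It was lower by 2.94 on the log2 scale (-2.94, SE 0.166, adjusted p = 1.16e-21). The lowest of all 72 other libraries had 31.0 CPM of MAP4K3, against 8.98, 8.97 and 7.12 CPM in the BCL11A knockout libraries. Of these 3 genes MAP4K3 alone kept a transcript level well above the minimum of the table. KCTD11, an adaptor for a ubiquitin ligase, had 0.146, 0.140 and 0.151 CPM in the BCL11A knockout libraries (3 counts each). Wild type had 1.07, 1.03 and 0.904 CPM (log2 fold change -2.74, SE 0.344), and the ACTB and PBRM1 knockouts had 0.482 and 0.566 CPM.

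Among the higher genes TTC28, a large tetratricopeptide-repeat protein of dividing cells, had 250.4, 233.1 and 213.3 CPM in the BCL11A knockout, against 109.6, 97.4 and 90.5 CPM in wild type (log2 fold change 1.21, SE 0.106). SNTB1, a syntrophin of the dystrophin complex, had 24.3, 22.2 and 22.0 CPM against 9.30, 7.10 and 6.96 CPM in wild type (1.54). The growth factor gene BMP3 had 5.19, 5.60 and 4.97 CPM against 0.897, 0.360 and 0.904 CPM in wild type (2.85). Knockouts of other genes came near these levels, with 197.2 CPM of TTC28 in the ARID1B knockout and 4.06 CPM of BMP3 in the BCL7A knockout. SNTB1 reached 20.85 CPM in the SMARCD3 knockout. TSPAN7 had 3.923 CPM in the BCL11B knockout, against 5.855 CPM in the BCL11A knockout.

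**Figure D1:**
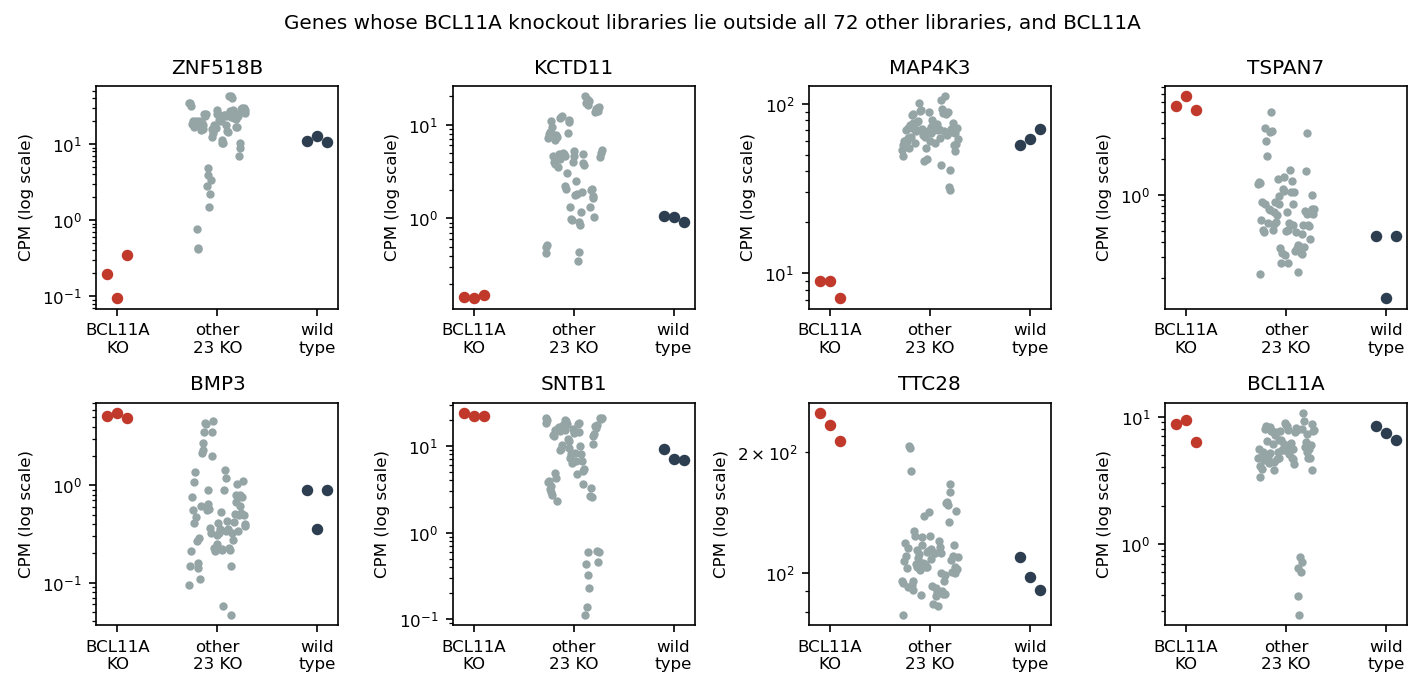
CPM per library (log axis) for 7 of the 18 genes whose BCL11A knockout libraries lay outside all 72 others, and for BCL11A itself. Each point is a library, with BCL11A knockout on the left, the other 23 knockout clones in the middle and wild type on the right. MAP4K3 lies between 7.12 and 8.98 CPM in the BCL11A knockout, below every other library, whereas the BCL11A transcript overlaps that of wild type.

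BCL11A mRNA itself did not differ detectably between the groups. Its counts were 180, 201 and 125 in the BCL11A knockout libraries and 151, 164 and 146 in the wild-type libraries. The libraries overlapped, and the log2 fold change was 0.11 (SE 0.171, adjusted p = 0.783), turning to -0.01 without BCL11A knockout replicate 2. The type of allele is not named in the labels, and a knockout allele need not remove the transcript. The mRNA level thus does not check the label, and protein was not analysed here. Across the 25 groups BCL11A mRNA was lowest in the SMARCA4 knockout clones 2878-4 and 2878-6, at 0.426 ± 0.166 and 0.723 ± 0.0736 CPM, and ranged from 3.95 CPM in ARID1A knockout clone 618-10 to 9.36 CPM in the SMARCC1 knockout elsewhere. BCL11A mRNA of the BCL11A knockout (8.13 ± 1.64 CPM) and of wild type (7.48 ± 0.935 CPM) both fell inside that range. The paralog BCL11B had 3.06, 3.18 and 3.56 CPM in the BCL11A knockout and 5.88, 4.86 and 3.53 CPM in wild type, which overlapped (-0.55, SE 0.209, adjusted p = 0.081). None of 30 tested BAF subunit genes was called by edgeR or DESeq2, with 5 at an unadjusted p under 0.05, a limit that 22.4% of all genes tested passed, and their fold changes lay between -0.55 and 0.32 on the log2 scale. None of 26 NuRD and corepressor subunit genes was called by either tool, with 1 at an unadjusted p under 0.05 (-0.26 to 0.17).

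Genes count as called where edgeR's quasi-likelihood test gave a Benjamini-Hochberg adjusted p up to 0.05 over 16159 genes and the log2 fold change reached 1 in either direction. Against wild type 669 genes (4.14%) were called, 400 higher (2.48%) and 269 lower (1.66%). The median log2 fold change of all genes tested was -0.007. Totals were 20604979, 21417643 and 19938313 counts in the BCL11A knockout libraries and 17847158, 22243858 and 22124825 in wild type, inside the range of 14917644 to 29993652 over the 75 libraries of the knockout table. Every value in that table is at least 1, and about 40 to 47% of genes per library stand at that minimum (39.94% to 47.17%).

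The globin genes, the best-known targets of BCL11A, were almost silent in both groups. HBG1, the adult beta-like genes HBB and HBD, and HBM stood at the table's minimum of 1 in all 6 libraries. HBG2 had 1, 2 and 3 counts in the BCL11A knockout libraries and 1, 3 and 1 in wild type, which is at or under the floor of 3 counts per library, so no gamma-globin transcript and no difference in it was detectable at this depth. The embryonic gene HBE1 had 1, 1 and 2 counts in the BCL11A knockout and 1 in each wild-type library.

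Some of the alpha-like genes gave more reads. HBA1 had 98, 74 and 96 counts in the BCL11A knockout libraries and 43, 42 and 63 in wild type. These did not overlap, but the gene missed both limits (log2 fold change 0.85, SE 0.325, adjusted p = 0.0851). HBA2 had 6, 6 and 5 counts in the BCL11A knockout libraries and 5, 4 and 6 in wild type. These overlapped (log2 fold change 0.16, SE 0.446, adjusted p = 0.897). HBA1 and HBA2 are nearly identical, and how reads common to both were counted is not given in the sources used here. HBQ1, the theta-globin gene, had 198, 249 and 175 counts in the BCL11A knockout libraries and 133, 117 and 144 in wild type, again without overlap (0.63, SE 0.226, adjusted p = 0.0617). For comparison, 26.8% of all genes tested had no overlap between the 3 and 3 libraries. The embryonic zeta-globin gene HBZ had 9, 9 and 9 counts in the BCL11A knockout libraries and 2, 3 and 2 in wild type. The filter on low counts removed it. Without the filter its log2 fold change was 1.91 (adjusted p = 0.00937). HBZ also entered and passed the test when any of the 6 libraries was left out (1.75 to 2.04, adjusted p = 0.0188 to 0.0436). The filter follows the size of the smallest group, so it was laxer in those fits. They reuse nearly the same counts of a gene picked after its values were seen, so the passes are not separate support. The other 72 libraries had 1 to 12 counts of HBZ with a median of 4, and 4 of them reached 9 or more.

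Among 28 tested regulators of fetal globin, 1 rose and 2 fell, with a list median of -0.06. By the same limits 2.48% of all genes tested were called higher and 1.66% lower. LIN28A, an RNA-binding protein of fetal cells that raises gamma-globin when forced into adult erythroid cells, had 3.74, 3.88 and 6.02 CPM in the BCL11A knockout, against 30.8, 35.1 and 41.5 CPM in wild type (log2 fold change -3.00, SE 0.257, adjusted p = 4e-14). TAL1, a master regulator of blood stem cells and red cells, had 2.33, 1.63 and 2.26 CPM against 20.1, 12.4 and 15.9 CPM in wild type (-2.97, SE 0.185). MYB, a factor of blood progenitors, had 2.62, 1.68 and 1.61 CPM against 0.672, 0.540 and 0.542 CPM in wild type (1.73, SE 0.415, adjusted p = 0.00215).

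Of 18 tested blood-lineage genes, 3 rose and 2 fell (over all genes tested, 2.48% and 1.66%), with a median of 0.48. FLI1, an ETS factor of platelets and vessels, rose to 3.69, 4.06 and 3.66 CPM in the BCL11A knockout, against 0.392, 0.405 and 0.362 CPM in wild type (log2 fold change 3.27). HCLS1, a cortactin-like actin regulator of blood cells, had 88.7, 83.4 and 72.7 CPM against 43.8, 39.3 and 35.9 CPM in wild type (1.03, SE 0.169). This call depended on 2 libraries, since HCLS1 stood at 0.97 without BCL11A knockout replicate 1 or without wild-type replicate 3. LYL1, a relative of TAL1, fell (-2.72), and CD34, SPI1 and MPO stayed at or under 3 counts in all 6 libraries. Of 12 tested B-lineage genes only EBF1, a factor that commits cells to that lineage, was called, and it had under 1 CPM in every library (-2.08; -1.59 and not called without wild-type replicate 2). Of 13 tested erythroid genes TAL1 alone was called, and GATA1 and ALAS2 were at or under 3 counts in all 6 libraries.

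The 15 genes with the largest increases against wild type, taken by fold change among called genes of at least 5 CPM without overlap, came from several classes. TLX3, a homeobox factor of sensory neurons, had 5.34, 4.58 and 5.87 CPM in the BCL11A knockout libraries, against 0.0560, 0.0899 and 0.181 CPM in wild type (log2 fold change 5.46, SE 0.348, adjusted p = 2.11e-19). The BCL11B knockout had a like level of TLX3 (4.54 ± 0.322 CPM), and the next group, the PBRM1 knockout, had 0.808 CPM. RHOD, a small GTPase of endosomes, had 14.9, 12.0 and 11.2 CPM in the BCL11A knockout, against 0.392, 0.270 and 0.271 CPM in wild type (5.32, SE 0.18). RHOD was also above 5 CPM in the knockouts of SMARCD3, SMARCC1, BCL7A, BCL11B, SMARCD1, ACTB and SMARCD2. GUCA1A, a guanylate-cyclase activator of photoreceptors, had 9.27, 10.3 and 9.53 CPM against 0.336, 0.180 and 0.271 CPM in wild type (5.18, SE 0.314). Only the BCL7A knockout had more GUCA1A (10.7 CPM), and the BCL11B knockout had 2.04 CPM.

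The gap-junction gene GJA1 (connexin 43) rose by 4.71, the matrix-associated AEBP1 by 4.44, the tetraspanin gene TSPAN7 by 4.07 and the neuronal kinesin gene KIF5A by 3.94 on the log2 scale. In the BCL11B knockout GJA1, AEBP1, TSPAN7 and KIF5A had 18.7, 0.977, 3.92 and 21.1 CPM, against 11.2, 5.07, 5.86 and 22.9 CPM in the BCL11A knockout. COL11A1, a fibrillar collagen of cartilage, was the most abundant of these genes, with 188.9, 176.1 and 208.9 CPM in the BCL11A knockout and 19.4, 19.1 and 22.2 CPM in wild type (3.22, SE 0.0839, adjusted p = 7.87e-38). COL11A1 also exceeded 100 CPM in the knockouts of SMARCD1, BCL11B, PHF10, SMARCD3, BCL7A and SMARCC1, whereas the median of the other 23 clones was 0.137 CPM. The posterior homeobox gene HOXC10 had 42.8, 46.3 and 49.5 CPM against 5.77, 5.04 and 4.75 CPM in wild type (3.14). HOXC10 was also high in the knockouts of BCL11B (54.2 CPM), SMARCD1 (52.2 CPM), SMARCD3 (49.7 CPM), BCL7A (45.0 CPM) and SMARCC1 (33.1 CPM). The next group, the SMARCC2 knockout, had 10.8 CPM. The adhesion gene CADM1 rose by 3.22, although wild-type replicate 2 (4.496 CPM) stood above the other wild-type libraries (1.40 and 1.54 CPM). The remaining members were the ephrin receptor gene EPHA10 (3.89), the chitinase-like CHI3L2 (3.35), the ESCRT gene CHMP4C (3.06), the synaptic pentraxin NPTX2 (2.95) and the growth factor EGF (2.95). CHMP4C had 19.2 CPM in the BCL11B knockout and 19.3 CPM in the BCL11A knockout. EPHA10, CHI3L2, NPTX2 and EGF had lower means in the BCL11B knockout than in the BCL11A knockout.

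**Figure D2:**
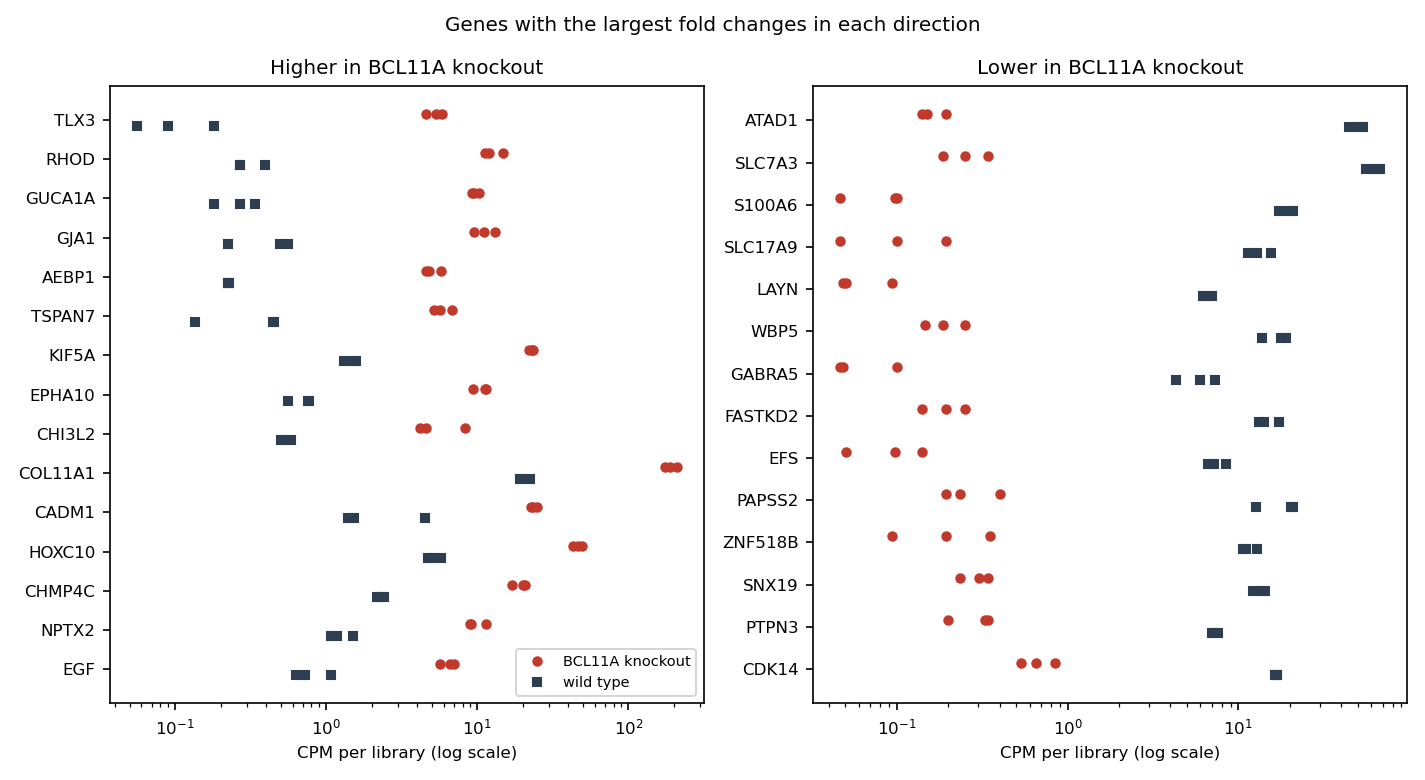
CPM per library on a log axis for 15 higher and 14 lower genes among those with the largest fold changes; circles are the 3 BCL11A knockout libraries and squares the 3 wild-type libraries. The genes were chosen for not overlapping, and the spread within a group is small beside the gap, as for COL11A1 (176.1 to 208.9 against 19.1 to 22.2 CPM).

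The largest decreases against wild type were taken by the same rule. ATAD1, a membrane ATPase that extracts misplaced tail-anchored proteins, had 0.194, 0.140 and 0.151 CPM in the BCL11A knockout libraries, against 51.0, 53.7 and 44.3 CPM in wild type (log2 fold change -8.23, SE 0.195). PAPSS2, which makes the sulfate donor PAPS, had 0.194, 0.234 and 0.401 CPM against 20.3, 21.0 and 12.8 CPM in wild type (-6.02, SE 0.295). The groups stood far apart for both genes. ATAD1 was as low in the knockouts of SMARCC1, BCL11B, SMARCD3, BCL7A, SMARCD1 and PHF10, at 0.119 to 0.164 CPM, and the next group, the SMARCC2 knockout, had 40.5 CPM. PAPSS2 had its 7 lowest levels in the same 7 groups, BCL11A knockout included, up to 0.730 CPM in the SMARCC1 knockout.

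SLC7A3, a carrier of cationic amino acids, fell nearly as far, with 0.340, 0.187 and 0.251 CPM in the BCL11A knockout, against 55.6, 67.5 and 62.6 CPM in wild type (log2 fold change -7.89, SE 0.245). Its 7 lowest groups were the 7 with the lowest ATAD1, up to 0.301 CPM in the SMARCC1 knockout, and the next group had 42.0 CPM. S100A6, a calcium-binding protein of proliferating cells, had 2 reads above the minimum in the BCL11A knockout and 1196 in wild type. That is a log2 ratio of -9.22 with an exact interval of -12.27 to -7.36, which covers counting error only. S100A6 was also at 0.0622 to 0.131 CPM in the knockouts of SMARCD3, BCL11B, BCL7A, SMARCC1, SMARCD1 and BRD7, and the next group, the PBRM1 knockout, had 1.74 CPM. LAYN, a hyaluronan receptor, had 1 read above the minimum in the BCL11A knockout against 408 in wild type, a log2 ratio with an exact interval of -13.97 to -6.18. GABRA5, a GABA receptor subunit, had 1 against 355 (-13.77 to -5.98), and the adaptor gene EFS had 3 against 463 (-9.55 to -5.71). SLC17A9, which loads ATP into vesicles, fell by 6.81, WBP5 by 6.41 and FASTKD2, a mitochondrial RNA-binding protein, by 6.23. LAYN, EFS and SLC17A9 had at most 0.157 CPM in the knockouts of BCL11B, BCL7A, SMARCC1, SMARCD1 and SMARCD3, whereas GABRA5 had 9.99 CPM in the SMARCD1 knockout. FASTKD2 was low in most clones, and the median of the other 23 was 0.148 CPM, against 14.9 CPM in wild type and 0.195 CPM in the BCL11A knockout. SNX19, a sorting nexin, fell by 5.51, the phosphatase gene PTPN3 by 4.64 and the cyclin Y partner CDK14 by 4.63.

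Neuronal genes moved in both directions. Of 21 tested, 3 rose and 6 fell (over all genes tested, 2.48% and 1.66%), with a median of 0.14. GRIA2, an AMPA receptor subunit, had 8.64, 13.2 and 7.12 CPM in the BCL11A knockout, against 4.43, 3.73 and 3.21 CPM in wild type (1.34). The presynaptic gene RIMS2 rose by 1.66. NRXN3 had 36 reads above the minimum against 3 in wild type, a log2 ratio of 3.59 with an exact interval of 1.93 to 5.93. CNTNAP2, a neurexin relative of axons, had 1.504, 1.12 and 1.20 CPM against 9.75, 8.23 and 9.31 CPM in wild type (-2.84). GAP43 (-3.23), a growth-cone protein, and the kainate receptor gene GRIK2 (-1.62) fell, as did MAP2 (-1.54) and GABRA5.

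Axon guidance genes showed 4 increases and 5 decreases among 37 (over all genes tested, 2.48% and 1.66%), with a median of 0.15. The receptor EPHA3 had 5.34, 6.16 and 5.97 CPM in the BCL11A knockout, against 35.8, 29.2 and 28.4 CPM in wild type (-2.43, SE 0.154). SEMA3C fell by 2.24, ROBO2 by 1.20, PLXNC1 by 1.16 and EFNB2 by 1.06, whereas the repellent SLIT1 rose by 1.95. The other increases, SEMA3A (1.14), NTN4 (1.13) and PLXNA2 (1.02), lost their call without a single library. SEMA3A stood at 0.92 without wild-type replicate 3 and 0.99 without wild-type replicate 2, NTN4 at 0.97 without BCL11A knockout replicate 1 and 0.94 without wild-type replicate 2, and PLXNA2 at 0.85 without BCL11A knockout replicate 1 and 0.75 without wild-type replicate 1. Of 22 neural adhesion genes 3 rose and 6 fell, and their median of -0.47 was the lowest of the lists. RELN, the extracellular guide of migrating neurons, had 2.18, 1.07 and 2.41 CPM against 13.1, 15.7 and 12.9 CPM in wild type (-2.90). TENM1 (-2.96) and LPHN3 (-2.79) fell, while CNTN1 (1.5), NFASC (1.36) and NRCAM (1.32) rose.

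Of 33 extracellular matrix genes 3 rose and 7 fell, against 2.48% and 1.66% of all genes tested. The list median was 0.09, the same with COL3A1 at its bound. Beside COL11A1, the laminin gene LAMA4 rose by 1.47 and COL5A1, whose levels were under 1.2 CPM, by 2.47. MFAP2, a protein of elastic microfibrils, had 1 read above the minimum against 95 in wild type, a log2 ratio of -6.56 with an exact interval of -11.88 to -4.05. COL3A1 stood at the minimum in all 3 BCL11A knockout libraries so that with a floor of 3 counts per library it was lower by at least 2.28 (log2). The peroxidasin gene PXDN, whose product cross-links collagen IV, had 0.534, 0.374 and 0.201 CPM against 3.59, 4.23 and 7.28 CPM in wild type (-3.76). POSTN (-3.23), COL5A2 (-3.03), the anti-angiogenic THBS1 (-2.90) and SPARC (-1.11) fell as well.

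Mesenchymal genes had 3 decreases and 1 increase among 16, against 1.66% lower and 2.48% higher over all genes tested. Their median of -0.28 was the same with PRRX1 at its bound. PDGFRA, the receptor for platelet-derived growth factor, had 4.22, 3.83 and 3.31 CPM in the BCL11A knockout, against 80.9, 99.1 and 97.6 CPM in wild type (-4.62, SE 0.182, adjusted p = 6.93e-29). PRRX1, a limb-mesenchyme homeobox factor, stood at the minimum in all 3 BCL11A knockout libraries and was lower by at least 3.44 (log2). N-cadherin (CDH2) had 46.2, 42.0 and 53.3 CPM against 103.0, 101.8 and 105.8 CPM in wild type (-1.15), while the receptor kinase AXL rose by 1.74. Of 28 integrins and cadherins ITGB4 rose (1.46), and PCDH7 (-3.13), CDH2 and PCDH17 (-1.12) fell. PCDH17 lost its call without BCL11A knockout replicate 3 (-0.89) or wild-type replicate 1 (-0.77). Among 34 actin, SRF and YAP target genes, AXL rose and ANKRD1 fell (-2.67), where 4.14% of all genes tested were called.

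The secreted and signalling genes were mixed, in lists to be read beside 2.48% higher and 1.66% lower over all genes tested. SFRP1, a WNT antagonist, had 89.7, 89.4 and 83.4 CPM in the BCL11A knockout, against 24.0, 21.2 and 27.6 CPM in wild type (1.83, SE 0.154). DKK3 (1.55) and WNT6 (1.73, under 1 CPM) were the other increases among 36 WNT pathway genes, with none called lower. That count was 5 in place of 3 without BCL11A knockout replicate 3, and WNT6 lost its call without BCL11A knockout replicate 2 (1.40), wild-type replicate 1 (1.62) or wild-type replicate 3 (1.69). BMP7 had 47.7, 54.7 and 57.7 CPM against 20.7, 19.6 and 19.9 CPM in wild type (1.40), and INHBE (1.30) also rose among 35 TGF-beta and BMP genes, of which 3 rose and 5 fell. BMP2 (-2.07), the coreceptor ENG (-1.49), the antagonist NOG (-1.25), ID2 (-1.21) and GDF3 (-1.19) fell. The ERK and immediate early genes had DUSP6 (-1.49), PHLDA1 (-1.08) and ETV5 (-1.02) lower among 33. Their count did not hold up to the loss of a library, with 1 called without BCL11A knockout replicate 1 and 0 without wild-type replicate 2.

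Of 62 homeobox and developmental factors 4 rose and 1 fell, against 2.48% and 1.66% of all genes tested (median -0.04). HOXB9 had 15.04, 14.71 and 15 CPM in the BCL11A knockout, against 4.48, 3.82 and 4.84 CPM in wild type (1.75). HOXC9 (1.95) and EYA1 (1.22) accompanied HOXC10. Of 12 tested imprinted genes 4 rose and none fell, beside the same 2.48% and 1.66%, with a median of 0.32. The growth factor IGF2 had 6.70, 4.62 and 8.08 CPM against 1.07, 1.44 and 1.76 CPM in wild type (2.15), and DLK1 (2.07), PHLDA2 (1.49) and KCNQ1 (1.31) rose too. In the TCEAL and BEX family on the X chromosome, TCEAL2 rose (2.60), WBP5 fell, and TCEAL8 had 2 reads above the minimum in the BCL11A knockout against 242 in wild type (log2 ratio -6.91, exact interval -9.97 to -5.04). The monocarboxylate carriers SLC16A7 (4.29) and SLC16A14 (1.19) rose among 23 transporter genes. KCNN2 rose (1.87) and KCNJ8 (-1.56), SCN9A (-1.13) and KCND3 (-1.02) fell among 19 potassium and sodium channel genes. Without wild-type replicate 3 the channel count was 2, and KCND3 also lost its call without BCL11A knockout replicate 3 (-0.93) or wild-type replicate 2 (-0.97).

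Of 27 interferon-stimulated genes IFITM1 (1.57) and IFITM3 (1.28) rose and OAS2 (-1.55) fell, against 2.48% and 1.66% of all genes tested. IFITM1 and IFITM3 neighbour each other and are similar in sequence, and IFITM3 lost its call whichever of the 6 libraries was left out (1.16 to 1.4). DESeq2 did not call IFITM3 either (1.30), and its call was also lost without the low-count filter (1.31) and with the minimum of 1 subtracted (1.40). SLC7A3 was the only call among 29 genes of the integrated stress response, where the count was 2 without BCL11A knockout replicate 1 or 3 or wild-type replicate 1 or 3. Neither edgeR nor DESeq2 called a member in the next 8 lists, which are given with their number at an unadjusted p under 0.05, where 22.4% of all genes tested stood. These were 5 of 18 class I antigen presentation genes, 2 of 5 metallothioneins, 10 of 21 histone genes, 3 of 35 replication and mitosis genes, 2 of 15 cyclin D genes and CDK inhibitors, 1 of 35 oxidative phosphorylation genes, 9 of 35 cytosolic ribosomal protein genes, and 2 of 30 BCL2 family genes and p53 targets. Without BCL11A knockout replicate 3 edgeR called 2 histone genes. CDKN1A, the cell-cycle inhibitor induced by p53, had 125.6, 77.4 and 284.3 CPM in the BCL11A knockout and 25.6, 17.0 and 191.1 CPM in wild type (1.04, SE 1.42, adjusted p = 0.738). MDM2, which p53 also induces, had 218.8, 179.7 and 567.2 CPM in the BCL11A knockout and 126.1, 129.9 and 433.1 CPM in wild type. Replicate 3 was the highest for both genes in both groups.

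**Figure D3:**
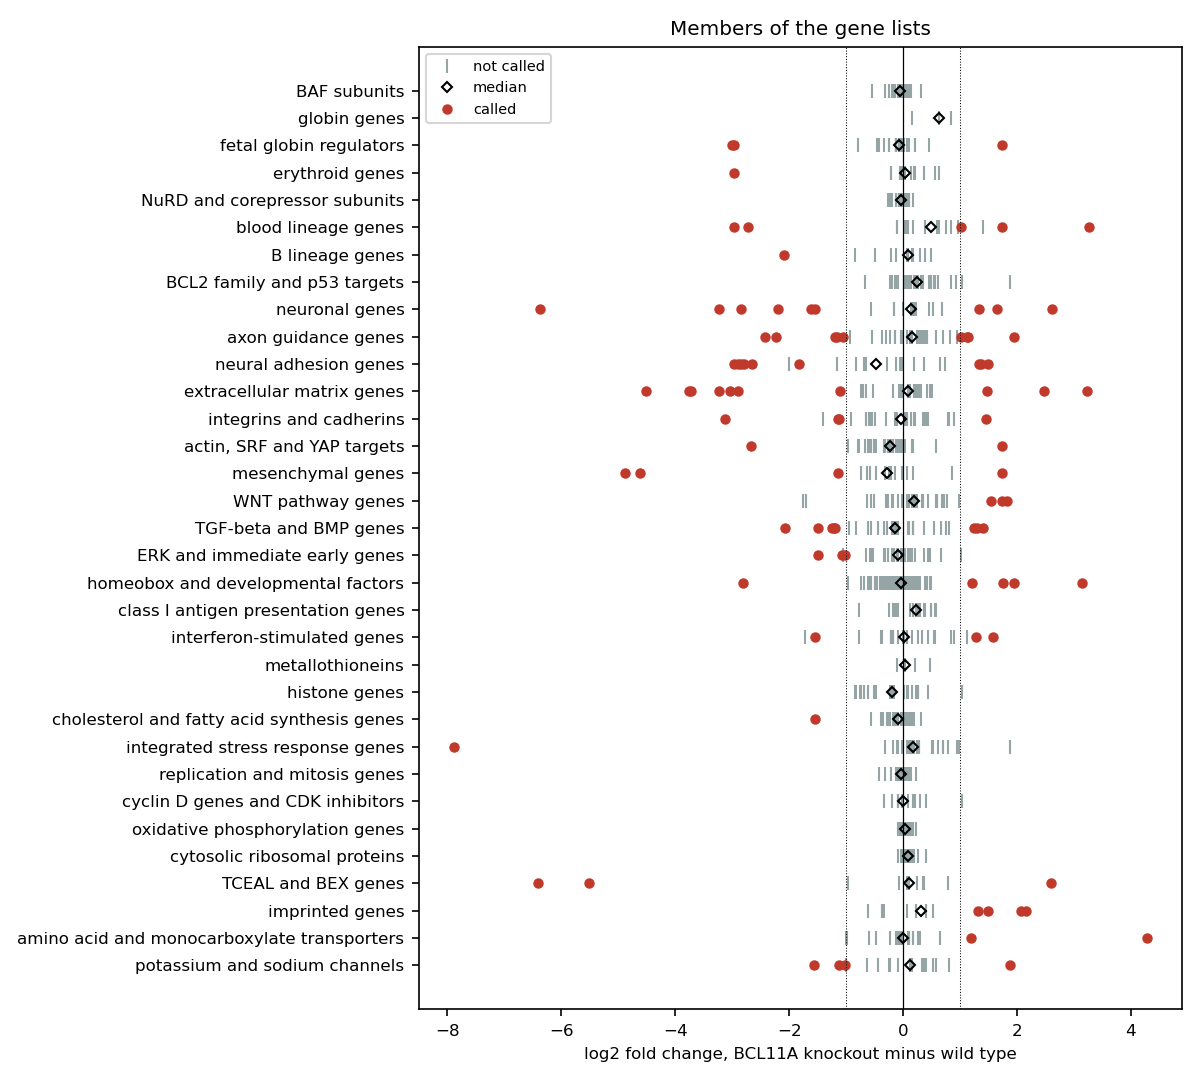
Log2 fold change of BCL11A knockout minus wild type for each tested member of the 33 gene lists; filled circles are called genes, ticks are genes not called, open diamonds are list medians, and dotted lines mark a log2 fold change of 1 in each direction. Called genes lie on both sides of 0 in most lists that hold them, and the list medians lie near 0, from -0.47 for neural adhesion genes to 0.63 for the 3 tested globin genes.

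Markers of other cells were checked against the label, with 4.14% of all genes tested called. Of 10 tested A549 markers AKR1C3 was called (3.08), and the list summed to 8.68 to 9.99 CPM in the BCL11A knockout and 3.87 to 6.10 CPM in wild type, with FGA, FGB, FGG, KRT7, KRT81 and LCN2 at or under 3 counts in all 6 libraries. Of 8 HEK293 markers EYA1 and PRAME (1.98) were called, with sums of 93.2 to 114.1 CPM in the BCL11A knockout and 90.6 to 100.6 CPM in wild type. Fibroblast markers had COL3A1 and PDGFRA lower among 6 (sums of 311 to 325.5 CPM in the BCL11A knockout and 313.2 to 348 CPM in wild type), and COL1A2, DCN, LUM and FAP were at or under 3 counts. Epithelial markers had EPCAM lower (-1.61) among 6, with sums of 82.5 to 100.4 CPM in the BCL11A knockout and 74.8 to 81.5 CPM in wild type. Of 10 myeloid and erythroid markers 2 could be tested and none was called, with sums of 12.2 to 12.4 CPM in the BCL11A knockout and 5.89 to 12.05 CPM in wild type; SPI1, CD33, MPO, CSF1R and GATA1 were among those at or under 3 counts. The part of any such cells in the results was not tested.

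Set directly against the BCL11B knockout, in a contrast whose fold changes do not use the wild-type libraries although these help to set the spread, the BCL11A knockout differed in 134 genes (0.829%), 69 of them higher (0.427%) and 65 lower (0.402%). HCLS1 had 88.7, 83.4 and 72.7 CPM in the BCL11A knockout, against 8.23, 7.49 and 8.60 CPM in the BCL11B knockout (log2 fold change 3.35, SE 0.188). FRMD4A, a scaffold of cell polarity, had 16.3, 14.5 and 12.1 CPM against 0.694, 1.21 and 1.32 CPM in the BCL11B knockout (3.74, SE 0.231). DLC1 averaged 7.84 ± 0.312 CPM in the BCL11A knockout and 0.669 ± 0.254 CPM in the BCL11B knockout (SD, n = 3 each), a difference of 3.55 on the log2 scale. Wild type had 7.77 CPM of DLC1, near the BCL11A knockout, and 8.45 CPM of FRMD4A, between the 2 knockouts. AEBP1 (2.39), EGF (2.37) and GUCA1A (2.27) were also higher in the BCL11A knockout. ZNF518B led the lower genes, with 0.194, 0.0934 and 0.351 CPM against 18.98, 17.97 and 15.93 CPM in the BCL11B knockout (-6.33, SE 0.242). MAP4K3 was lower by a similar amount as against wild type (-2.97). The synaptic adhesion gene NLGN4X had 1.504, 2.38 and 1.56 CPM in the BCL11A knockout, against 19.5, 24.3 and 12.6 CPM in the BCL11B knockout (-3.35), and the wild-type libraries had 0.0899 to 0.168 CPM. ARHGEF34P (-3.93), EPDR1 (-3.71) and the keratinocyte factor BNC1 (-3.13) completed this set. The count fell to 74 when the 6 libraries compared were fitted alone.

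The contrast with BCL11B knockout had the fewest called genes of the 24 that involve the BCL11A knockout. The SMARCD3 knockout followed with 310 genes (1.92%), then the knockouts of BCL7A with 532 (3.29%), SMARCD1 with 548 (3.39%), DPF1 with 605 (3.74%) and SMARCA2 with 668 (4.13%). Wild type came seventh with its 669 (4.14%). The shares were 4.27% for the DPF3 knockout, 4.29% for PHF10, 4.57% for DPF2, 5.11% for BRD9, 5.14% for PBRM1 and 6.17% for SMARCD2. They were 6.44% for ACTB, 6.50% for BCL7B, 6.65% for BRD7, 6.68% for SMARCC2 and 6.70% for ARID1B. ARID1A knockout clones 618-3 and 618-10 had 7.17% and 7.35%, SMARCC1 had 7.64% and ARID2 had 7.88%. At the other end stood the SMARCA4 knockout clones 2878-6 and 2878-4 with 1996 and 2001 genes (12.4% each). The group means of the BCL11A knockout correlated over the 2000 most variable genes with r = 0.968 for the BCL11B knockout, 0.952 for the SMARCD3 knockout and 0.881 for wild type, a description over genes, which are not independent. These 24 contrasts share the BCL11A knockout libraries and were added after the main results were known.

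**Figure D4:**
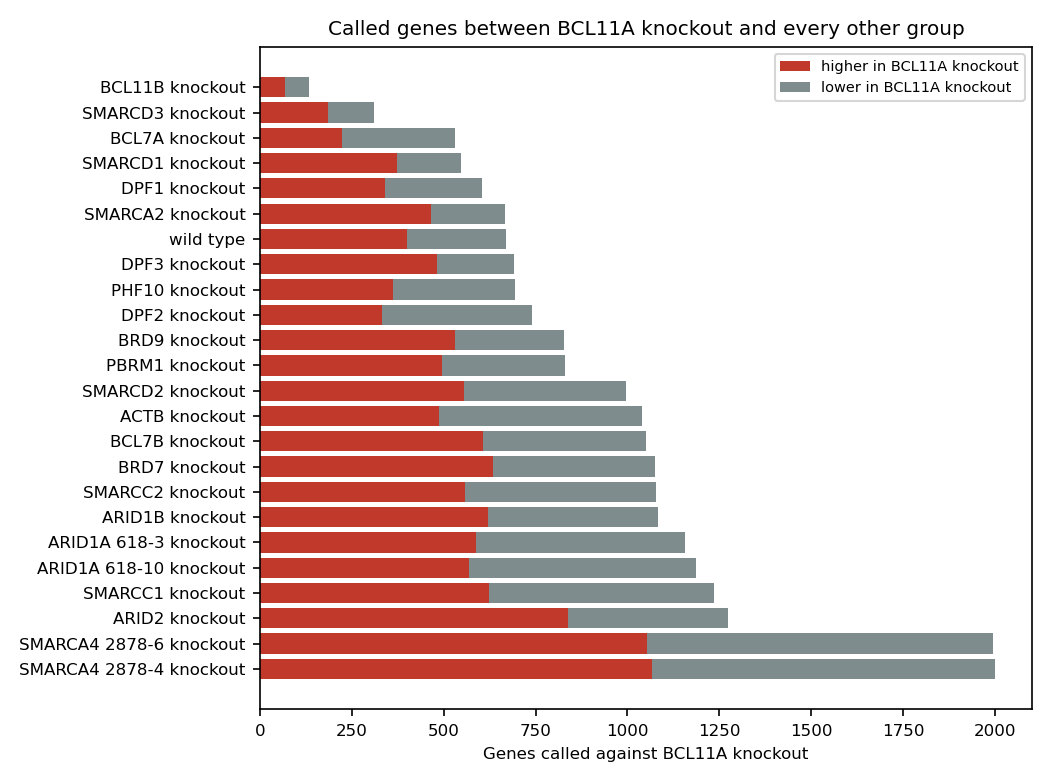
Number of genes called between the BCL11A knockout and each of the other 24 groups, split into genes higher and lower in the BCL11A knockout. The BCL11B knockout bar is the shortest (134 genes), wild type is the seventh (669 genes) and SMARCA4 knockout clone 2878-4 the longest (2001 genes).

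Against the equally weighted mean of the other 23 knockout clones 607 genes (3.76%) were called, 368 higher (2.28%) and 239 lower (1.48%). The SE and the calls of this contrast rest on the spread between libraries within groups and leave out the spread between the 23 clones. COL11A1 had the largest increase (log2 fold change 7.64, SE 0.0445), although it ran from 0.0815 CPM (SMARCC2 knockout) to 251.6 CPM (SMARCD1 knockout) over those clones. It was followed by RHOD (5.22), TLX3 (5.10), GUCA1A (4.94), CHMP4C (4.6) and HCLS1 (4.36). ZNF518B (-6.10), ATAD1 (-6.08), SLC7A3 (-6.02), S100A6 (-5.83) and LAYN (-5.03) were among the largest decreases. ZNF518B was the only gene of these 11 at which the BCL11A knockout was lower than all 24 other groups, and TLX3 the only gene at which it was higher than all of them.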

How the data were processed

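RNA-seq was made from poly-A RNA of HAP1 cells as stranded libraries read singly at 50 bases, per the labels' protocols. The deposited gene table holds estimated counts (expected counts) that were already whole numbers, with a minimum of 1, so rounding left them as they were. Trimmomatic, Bowtie, Picard and DESeq2, with GRCh37 and hg19, are named per the submitters' processing notes; versions, counting tool, annotation, handling of multi-mapped reads and use of strand were not given in the sources used here. A second deposited table holds the authors' quantile-normalized log2 TPM, used for an alternative through 9 columns. In all, 8 columns could not be matched to a labelled sample and were not used.

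The test was edgeR 4.0.16 in R 4.3.3. Its filterByExpr kept 16159 of 35438 genes, TMM gave the scaling, and 1 robust quasi-likelihood fit held 75 libraries in 25 groups of 3, each group a term. Adjusted p-values are Benjamini-Hochberg over all genes tested. SE belongs to log2 fold changes and SD to CPM. Intervals of read ratios are exact binomial and cover counting error only. Named genes follow a rule: called, at least 5 CPM in the higher group, no overlap of libraries, ranked by fold change (15 in each direction against wild type, 6 elsewhere), plus each list's called members, up to 4 in each direction by fold change. Further called members of a list were named to complete it. Some genes that the rule names are not reported here. HBZ, KCTD11, BMP3, SNTB1, TTC28 and the contrasts with single clones were chosen after their values were seen. Members and lists were chosen with earlier results of these data known. Promoters come from RefSeq (GRCh38.p14) by symbol, with no coordinate converted. Libraries within a group differed beyond sampling noise (chi-square per degree of freedom of at least 6.80). Same-numbered BCL11A knockout and wild-type libraries did not deviate together (r = -0.06, 0.12 and 0.10 over 9961 genes); those of BCL11A and BCL11B knockout did (0.28, 0.14 and 0.31). The scripts were tested on simulated data. Alternatives used DESeq2 1.42.0, limma 3.58.1, other scaling, filters and left-out libraries.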

Additional observations from a re-analysis of the deposited data

How the results depend on the processing

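The counts of called genes against wild type stayed within 1.5 times of 669 under every alternative run (525 to 706; 576 to 706 with a library left out; 615 in DESeq2, where 627 genes had no adjusted p). Against the other 23 clones they ran from 565 to 653 around 607. The 134 genes against the BCL11B knockout became 74 (33 higher, 41 lower) with only the libraries compared, where 6 libraries set the spread, and 85 (39 lower) with limma on log2 TPM, whose cause was not tested; leaving out a library gave 110 to 130. With the replicate block 681, 148 and 614 genes were called against wild type, BCL11B knockout and the other clones, and no other call named here changed by pairing. BCL11A mRNA ranged from -0.01 to 0.26 with a library left out, and MDM2 was at -0.23 without BCL11A knockout replicate 3 and 1.33 without wild-type replicate 3. Of 146 gene results, 127 kept direction and side of the threshold throughout. NFASC (1.26), INHBE (1.21), ENG (-1.42), DUSP6 (-1.39), KCNJ8 (-1.41), PLXNA2 (1.03) and IFITM3 (1.23) lost their call with limma on log2 TPM. With only the libraries compared PLXNA2 (1.01), PCDH17 (-1.12), DUSP6 (-1.49), ETV5 (-1.02) and KCNJ8 (-1.56) lost it. Without the low-count filter ETV5 and KCND3 lost it (-0.99 each). When the minimum of 1 was subtracted, LAYN lost it against the other clones (-6.13) and WNT6 against wild type (2.14). Folds of genes near that minimum depend on the prior count.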
